A study of Mus musculus with 8 samples.

Results

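Cpxm2 and 7 related metallocarboxypeptidase genes (Cpxm1, Aebp1, Cpe, Cpd, Cpm, Cpz and Cpn1) were followed in mouse heart RNA. The 8 genes were chosen by name as members of the carboxypeptidase N/E branch of the M14 family, and Cpxm2 was the reason for the choice, because its counts were higher in isoproterenol hearts of this series. Its isoproterenol values are therefore given as a description, with no p-value. Each of the 8 symbols matched 1 of the 55487 gene identifiers in the deposited table. Of these 8 genes, 7 passed the filter on low counts that 17636 identifiers passed, and Cpn1 did not.

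The hearts came from 4 groups of 2 libraries: Set7KO given isoproterenol, Set7KO given saline, WT given isoproterenol and WT given saline. Set7KO mice lack Set7, a lysine methyltransferase encoded by Setd7, in the whole body and were bred from heterozygous parents, so the deletion was not limited to any heart cell type. Isoproterenol, a beta-adrenergic agonist that provokes cardiac hypertrophy and fibrosis, was injected under the skin at 60 mg/kg on 14 consecutive days, and saline was the vehicle. The sources used here give neither age nor sex, nor how many animals stand behind a library. P-values therefore measure the spread between these libraries, part of which can be technical.

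M14 carboxypeptidases are zinc enzymes that trim single amino acids from the carboxyl end of peptides and proteins. Members of the N/E branch with enzymatic activity remove basic residues, lysine and arginine, and so finish peptide hormones inside the secretory pathway or shorten kinins and other peptides outside the cell. Cpxm1, Cpxm2 and Aebp1 form a subgroup with a discoidin domain, a fold used to bind collagen and other partners, and lack residues that the active enzymes need. Aebp1, also known as aortic carboxypeptidase-like protein, is a secreted protein that binds collagen, and its loss in humans causes a form of Ehlers-Danlos syndrome.

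Library totals ran between 27847069 and 51705705 counts. Levels are given as counts scaled to library size (CPM) after TMM normalisation, and differences are on the log2 scale from a model of all 8 libraries. Setd7 had 3.79, 3.92, 4.45 and 5.70 CPM in the 4 Set7KO libraries, against 58.1, 72.6, 43.7 and 43.0 CPM in the 4 WT libraries. The 6 cardiomyocyte markers were all detected, with a summed level of 71340 to 102196 CPM per library. Both WT isoproterenol libraries and Set7KO saline replicate 2 stood apart on the first principal component, at 58.6 to 67.3 against -71.7 to -19.0 in the other 5. They also had lower counts of GC-rich relative to GC-poor genes: between the GC-richest and the GC-poorest of 5 equal classes of genes, the median log2 deviation differed by -1.08 to -0.78 in these 3 libraries and by 0.19 to 0.86 in the other 5. Many differences are therefore given a second time, from a fit with offsets for GC content and transcript length. The first numbers in the sample titles were highest in the 3 libraries that stood apart, and what they stand for is not given. In WT this split coincided with treatment, so there it cannot be told apart from isoproterenol. Why Set7KO saline replicate 2 stood apart from its partner was not tested, and a mix-up of that library cannot be judged from the files. Some differences of Cpxm2, Cpxm1, Aebp1 and Cpd from the Set7KO saline group are therefore also given without it. Other values keep it, save where each library was left out in turn.

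The sequences before the start sites of the 3 discoidin members are shown so that Cpxm2, the gene picked for its isoproterenol difference, can be read beside its closest relatives. RefSeq windows on GRCm38.p6 were matched for 7 of the 8 genes, and Cpe was not among them. Each line gives the 250 bases before the RefSeq start, 5′ to 3′ on the strand of the gene, with GC boxes (GGGCGG or its complement CCGCCC) and CRE half-sites (TGACG or its complement CGTCA) in capitals. The windows lie at chr7:132154742-132154991 on the minus strand (Cpxm2), chr2:130397630-130397879 on the minus strand (Cpxm1) and chr11:5861616-5861865 on the plus strand (Aebp1).
Cpxm2: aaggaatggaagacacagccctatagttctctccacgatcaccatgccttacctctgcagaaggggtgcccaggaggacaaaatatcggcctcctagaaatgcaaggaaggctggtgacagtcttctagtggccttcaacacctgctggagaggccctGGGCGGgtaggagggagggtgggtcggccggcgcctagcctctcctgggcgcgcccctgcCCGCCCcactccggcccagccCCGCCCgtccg
Cpxm1: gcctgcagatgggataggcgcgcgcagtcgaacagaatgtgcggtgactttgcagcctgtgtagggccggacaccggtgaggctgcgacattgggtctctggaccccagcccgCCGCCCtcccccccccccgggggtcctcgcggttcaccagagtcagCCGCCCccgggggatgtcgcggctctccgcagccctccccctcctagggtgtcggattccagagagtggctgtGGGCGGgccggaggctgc
Aebp1: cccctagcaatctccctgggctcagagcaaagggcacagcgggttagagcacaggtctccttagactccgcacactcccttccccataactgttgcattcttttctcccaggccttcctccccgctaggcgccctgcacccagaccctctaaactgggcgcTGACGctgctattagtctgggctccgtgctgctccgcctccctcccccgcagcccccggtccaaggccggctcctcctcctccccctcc
Cpxm2 and Cpxm1 each held 3 GC boxes and Aebp1 held none, where 32.7% of 32851 RefSeq windows held at least 1. Aebp1 held 1 CRE half-site and the other two windows none, against 17.8% of all windows. None of these 3 windows held an AP-1 site (TGANTCA, in 6.75% of windows), an NFAT core (GGAAA, in 55.6%) or a TATA box (TATAAA, in 12.4%), searched on both strands. GC content of the windows was 64% for Cpxm2, 70.8% for Cpxm1 and 64.4% for Aebp1.

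Cpxm2 (ENSMUSG00000030862, chr7:132032687-132154739, minus strand, GRCm38) had 134.9 and 104.0 CPM in Set7KO isoproterenol hearts, against 23.6 and 23.3 CPM in Set7KO saline hearts. In WT it had 104.5 and 105.4 CPM after isoproterenol, against 31.8 and 40.2 CPM after saline. The lowest isoproterenol library stood well above the highest saline library, and the 4 isoproterenol libraries lay close together whatever the genotype. Underlying counts were 2841 to 4606 in isoproterenol libraries and 726 to 1212 in saline libraries. Across genotypes the mean was 112.2 ± 15.2 CPM after isoproterenol and 29.7 ± 8.01 CPM after saline (SD, n = 4 each). The fitted log2 difference was 1.95 ± 0.16 (SE), and 2.02 with the offsets. By genotype it was 2.35 ± 0.23 in Set7KO and 1.54 ± 0.23 in WT, and 2.26 and 1.79 with the offsets. Without Set7KO saline replicate 2 the Set7KO value was 2.34. Ratios of single isoproterenol to single saline libraries ran between 4.41 and 5.80 in Set7KO and between 2.60 and 3.32 in WT.

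Among 12496 genes with a mean of at least 2 CPM, the averaged log2 difference of Cpxm2 ranked 8th in size among rises. In Set7KO alone it ranked 9th and in WT alone 536th, or 21st in WT with the offsets. Cpxm2 was the 1 member called in the averaged contrast, where 9 of 17636 genes (0.051%) had an adjusted p under 0.05 in edgeR's quasi-likelihood test, 2 of them (0.0113%) higher. Since Cpxm2 was picked for this difference, nothing is read from that count. With each of the 8 libraries left out in turn, the log2 difference of Cpxm2 stayed between 1.84 and 2.04. No member was called in Set7KO alone or in WT alone, where 0 of 17636 genes (0%) passed in either genotype, with 1704 and 5599 genes at an unadjusted p under 0.05. DESeq2 called 1 member in Set7KO, where it called 0.573% of all genes, and 2 in WT, where it called 15.4%.

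**Figure D1:**
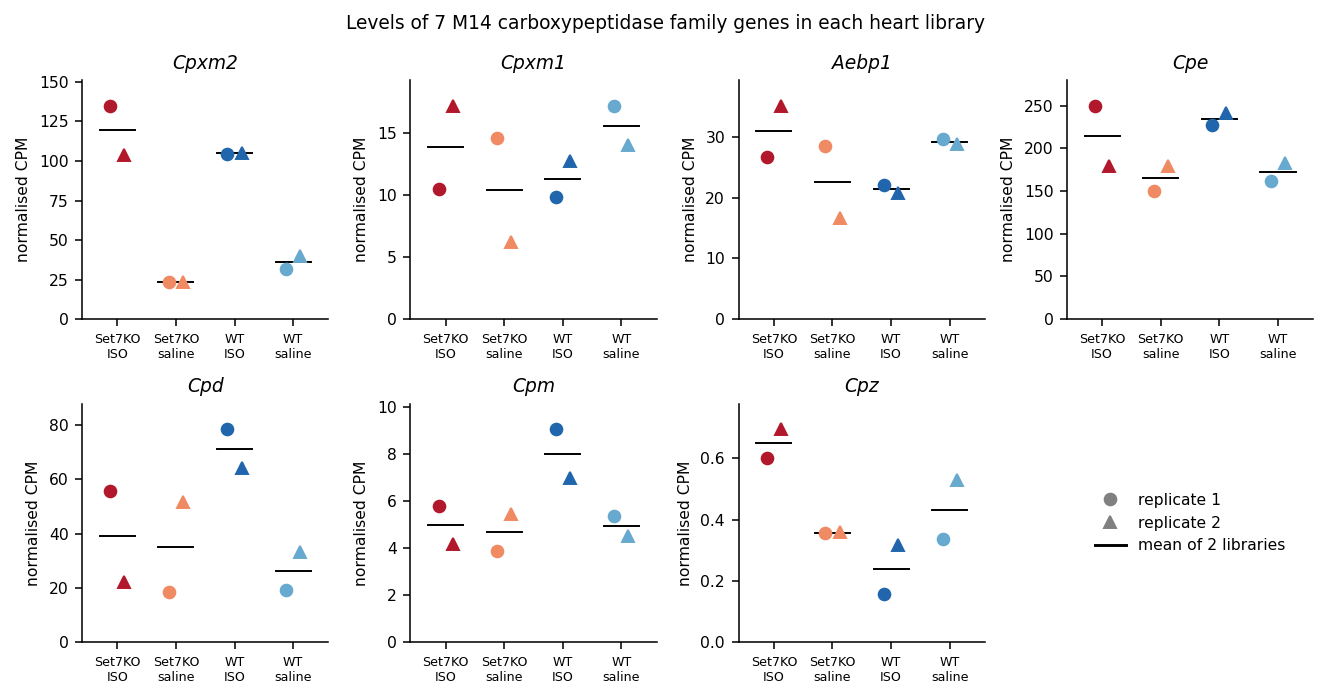
Normalised CPM of the 7 tested genes in each library (y axis, linear from 0), by group, with circles and triangles for replicates 1 and 2 and a line for the mean of 2 libraries. Cpxm2 lies between 104.0 and 134.9 CPM in isoproterenol (ISO) libraries and between 23.3 and 40.2 CPM in saline libraries, while the groups of Cpxm1, Aebp1, Cpd and Cpm are not ordered by treatment in both genotypes.

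Other genes at the Cpxm2 locus had few counts. The antisense gene Gm15677 at the Cpxm2 start had at most 2 counts in a library, and an rRNA copy within the gene, n-R5s159, also at most 2. Fgfr2, whose annotated locus extends over Cpxm2 on the same strand, had at most 20 counts. Whether counting used the strand is not stated in these sources. Of the neighbours, Gpr26 had no count in any library. Chst15, a sulfotransferase of the Golgi, had 16.9 CPM after isoproterenol and 14.6 CPM after saline on average, a log2 difference of 0.22 that did not pass the test (edgeR adjusted p = 0.692).

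Cpxm1 (ENSMUSG00000027408, chr2:130390775-130397574, minus strand), the closest relative of Cpxm2 by name and domain make-up, had 10.5 and 17.2 CPM in Set7KO isoproterenol hearts, against 14.6 and 6.22 CPM in Set7KO saline hearts. In WT hearts it had 9.85 and 12.7 CPM after isoproterenol, against 17.1 and 14.0 CPM after saline. The Set7KO groups overlapped, and the WT groups did not, with isoproterenol lower. Averaged over genotypes the log2 difference was -0.03 ± 0.30 (SE; 95% interval -0.71 to 0.65; edgeR adjusted p = 0.981), and 0.16 with the offsets. The interval lies below the difference measured for Cpxm2, but Cpxm2 was picked for its rise, so nothing is read from that distance. By genotype the log2 difference of Cpxm1 was 0.41 in Set7KO and -0.47 in WT, and 0.32 and -0.01 with the offsets. Without Set7KO saline replicate 2 the Set7KO value turned to -0.08.

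Aebp1 (ENSMUSG00000020473, chr11:5861947-5872088, plus strand) had 26.7 and 35.1 CPM in Set7KO isoproterenol hearts, against 28.5 and 16.6 CPM in Set7KO saline hearts. Its WT levels were 22.1 and 20.7 CPM after isoproterenol, against 29.6 and 28.8 CPM after saline. As for Cpxm1, the treatments overlapped in Set7KO and stood apart in WT with isoproterenol lower. The averaged log2 difference was 0.00 ± 0.20 (95% interval -0.46 to 0.47; edgeR adjusted p = 0.999). In WT alone it was -0.45 ± 0.29 (adjusted p = 0.292) and turned to 0.11 with the offsets. In Set7KO it was 0.45, or 0.28 with the offsets and 0.12 without Set7KO saline replicate 2. Aebp1 is a GC-rich gene, above 91.6% of tested genes in GC content, and its lowest 3 levels were in the 3 libraries with low counts of GC-rich genes.

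Cpe (ENSMUSG00000037852, chr8:64592542-64693054, minus strand) encodes carboxypeptidase E, which removes basic residues from peptide hormone precursors in secretory granules. It had 249.8 and 179 CPM in Set7KO isoproterenol hearts, against 150.0 and 179.7 CPM in Set7KO saline hearts. In WT hearts it had 227 and 241 CPM after isoproterenol, against 161.3 and 183 CPM after saline. Of the 4 isoproterenol libraries, 3 lay above every saline library. Cpe averaged 224 ± 31.5 CPM after isoproterenol and 169 ± 15.7 CPM after saline (SD, n = 4 each). The log2 difference of 0.41 ± 0.16 had an unadjusted p of 0.0347 and did not pass after adjustment over all genes (edgeR adjusted p = 0.472). It was 0.38 in Set7KO and 0.44 in WT, and 0.39 averaged with the offsets.

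Cpd (ENSMUSG00000020841, chr11:76778424-76847018, minus strand) encodes carboxypeptidase D, a membrane-anchored enzyme of the trans-Golgi network. It had 55.9 and 22.1 CPM in Set7KO isoproterenol hearts, against 18.4 and 51.9 CPM in Set7KO saline hearts. In WT hearts it had 78.5 and 64.2 CPM after isoproterenol, against 19.3 and 33.2 CPM after saline. The WT groups stood apart, whereas the libraries within each Set7KO group differed more than the group means. The log2 difference was 1.44 ± 0.56 in WT (edgeR adjusted p = 0.132) and 0.15 ± 0.55 in Set7KO (adjusted p = 0.941). With the offsets the values came close to each other, at 0.65 in WT and 0.50 in Set7KO. Without Set7KO saline replicate 2 the Set7KO value was 1.09 (adjusted p = 0.814). Cpd is GC-poor, with a GC content above 24.9% of tested genes, and was high in the 3 libraries with low counts of GC-rich genes as well as in Set7KO isoproterenol replicate 1. DESeq2 called Cpd in WT (log2 difference 1.40, adjusted p = 0.0376) among 15.4% of all genes. edgeR called it when either Set7KO saline library was left out (adjusted p = 0.0499 without replicate 1 and 0.0495 without replicate 2), in fits that called 20.1% and 20.7% of all genes, so these calls say little about Cpd in particular.

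Cpm (ENSMUSG00000020183, chr10:117629500-117687352, plus strand) encodes carboxypeptidase M, a lipid-anchored enzyme of the cell surface that acts on kinins and other peptides. Its levels were 5.78 and 4.17 CPM in Set7KO isoproterenol hearts, against 3.90 and 5.44 CPM in Set7KO saline hearts. In WT hearts they were 9.05 and 6.99 CPM after isoproterenol, against 5.37 and 4.51 CPM after saline. The pattern resembled that of Cpd, with separate groups in WT and overlap in Set7KO. The WT log2 difference was 0.70 ± 0.31 (edgeR adjusted p = 0.161), and 0.17 with the offsets.

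Cpz (ENSMUSG00000036596, chr5:35502218-35525698, minus strand) encodes a secreted carboxypeptidase with a frizzled-like domain that can bind Wnt proteins. It was rare, with 20 and 19 counts in Set7KO isoproterenol hearts, against 11 and 18 counts in Set7KO saline hearts, or 0.602 and 0.695 CPM against 0.358 and 0.359 CPM. In WT hearts it had 7 and 11 counts after isoproterenol, against 9 and 16 counts after saline, or 0.159 and 0.318 CPM against 0.336 and 0.530 CPM. The treatments did not overlap in either genotype, with isoproterenol higher in Set7KO and lower in WT. The log2 difference was 0.85 ± 0.53 in Set7KO (edgeR adjusted p = 0.629) and -0.88 ± 0.56 in WT (adjusted p = 0.290). With the offsets it was 0.60 and -0.31, and the WT treatments then overlapped, at 0.208 and 0.385 CPM after isoproterenol, against 0.279 and 0.449 CPM after saline.

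Cpn1 (ENSMUSG00000025196, chr19:43956307-43986556, minus strand), the catalytic subunit of plasma carboxypeptidase N that the liver secretes, had no count in any of the 8 libraries. At 3 counts as the floor, levels up to 0.0598 to 0.112 CPM, depending on the library, would have been missed.

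**Figure D2:**
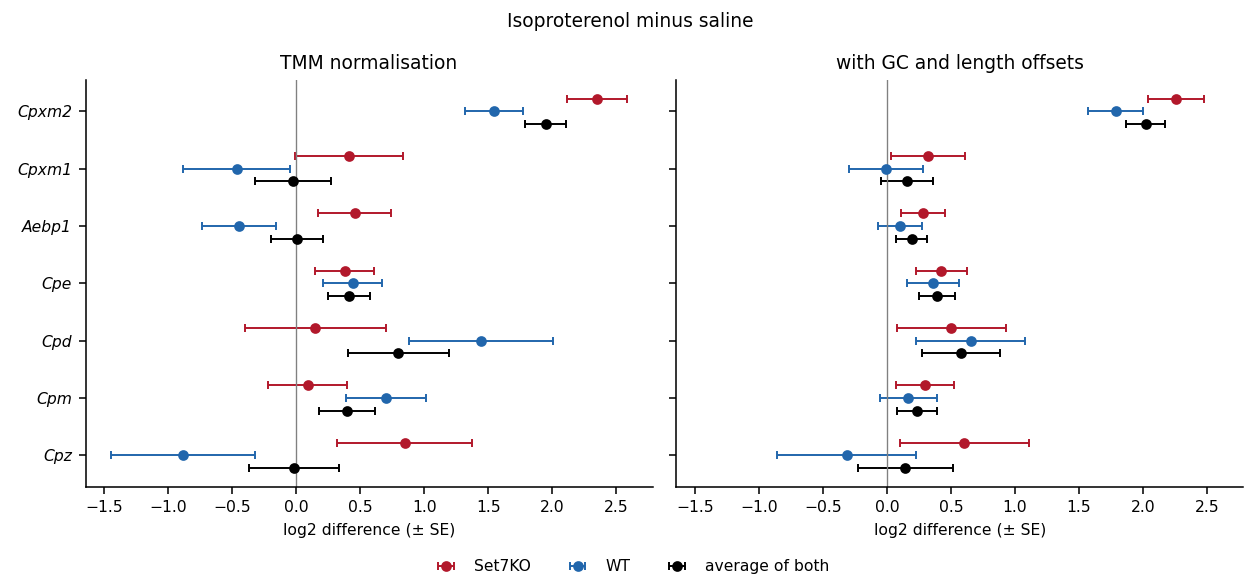
Fitted log2 difference between isoproterenol and saline for each of the 7 tested genes (x axis, points with standard errors), averaged and in each genotype, from the TMM fit and from the fit with GC and length offsets. Cpxm2 sits at 1.95 ± 0.16 averaged over genotypes, and the WT value of Cpd is 1.44 without and 0.65 with the offsets.

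Leaving out Cpxm2, the median averaged log2 difference of the 6 other genes tested was 0.20, or 0.21 with the offsets, against 0.02 over all genes. Cpxm2 was the 1 gene of the 7 whose isoproterenol libraries all lay above the saline libraries, and 2.11% of all genes did so. In Set7KO, Cpxm2 and Cpz were higher without overlap, as were 16% of all genes. Since Cpxm2 was picked for its rise with isoproterenol, nothing is read from its separation, averaged or in Set7KO alone. In WT the treatments did not overlap for any of the 7, with 4 higher and 3 lower, but the same was true of 72.7% of all genes, so separation in WT does not set the members apart.

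Levels between genes were compared per kilobase of exon, as CPM per kb. Cpe was highest at a mean of 75.3 CPM per kb over the 8 libraries, and Cpxm2 followed at 15.3. Aebp1 (6.41), Cpxm1 (5.25) and Cpd (5.15) came next, with Cpm (0.948) and Cpz (0.187) far below. Cpxm2 had 22.5 to 29.2 CPM per kb in isoproterenol hearts, above every value of Aebp1 (5.10 to 8.65), Cpxm1 (4.05 to 7.06) and Cpd (2.66 to 9.42) there. In saline hearts the range of Cpxm2, 5.03 to 8.69 CPM per kb, overlapped those of Aebp1 (4.10 to 7.30), Cpxm1 (2.56 to 7.04) and Cpd (2.21 to 6.23). Cpe stayed above all of them, at 68.7 to 95.7 CPM per kb after isoproterenol and 57.5 to 70.2 after saline. The ranges of Aebp1, Cpxm1 and Cpd overlapped each other in both treatments.

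Of the summed CPM per kb of the family, Cpxm2 made up 20.3% in both Set7KO isoproterenol libraries, against 6.49% and 5.73% in the Set7KO saline libraries. In WT its share was 17.4% and 16.9% after isoproterenol, against 7.95% and 8.98% after saline. Relative to Aebp1, Cpxm2 had per kb 4.43 and 2.60 times its level in Set7KO isoproterenol hearts, against 0.727 and 1.23 times in Set7KO saline hearts. In WT hearts the ratio was 4.15 and 4.47 after isoproterenol, against 0.941 and 1.22 after saline. In saline hearts the 2 genes were thus at similar levels per kb, and in isoproterenol hearts Cpxm2 was the more abundant.

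**Figure D3:**
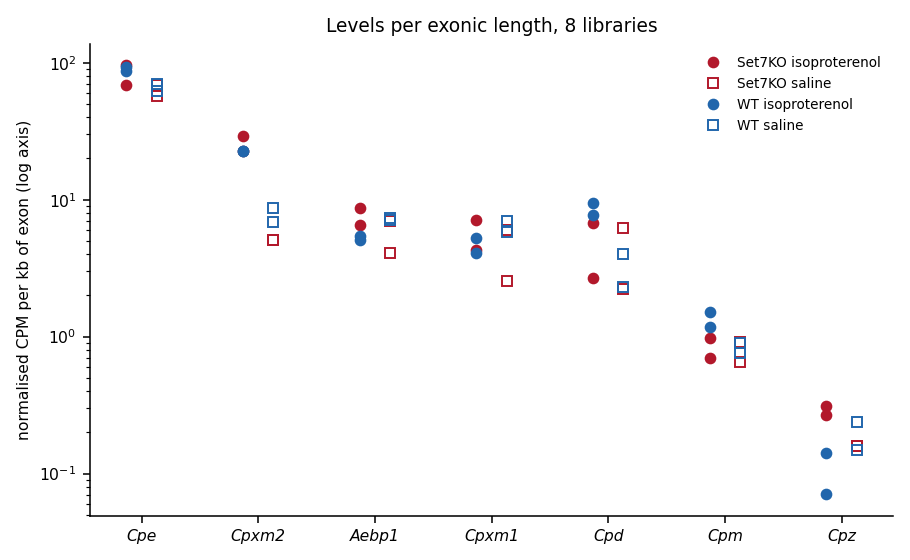
CPM per kilobase of exon of the 7 tested genes in each library (log10 axis), isoproterenol and saline hearts side by side. Cpxm2 moves out of the range of Aebp1, Cpxm1 and Cpd after isoproterenol (22.5 to 29.2 CPM per kb) and overlaps it after saline (5.03 to 8.69).

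No member passed the test between genotypes, with edgeR or with DESeq2. In each of the 3 contrasts 1 of 17636 genes (0.00567%) was called, Setd7 itself, lower in Set7KO, while 3505 genes in isoproterenol hearts, 1815 in saline hearts and 276 on average had an unadjusted p under 0.05. Cpxm2 in isoproterenol hearts averaged 119 CPM in Set7KO and 105 CPM in WT, a log2 difference of 0.19 ± 0.22 (95% interval -0.32 to 0.69; edgeR adjusted p = 0.608), and 0.02 with the offsets. In saline hearts Set7KO had 23.6 and 23.3 CPM, below 31.8 and 40.2 CPM in WT. That log2 difference was -0.62 ± 0.22 (95% interval -1.13 to -0.11; unadjusted p = 0.0231; edgeR adjusted p = 0.483), and -0.45 with the offsets. It was -0.58 without Set7KO saline replicate 2. Averaged over treatments it was -0.22 ± 0.16 (adjusted p = 1.00).

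Among the other members, Cpz differed most between genotypes, with 0.602 and 0.695 CPM in Set7KO isoproterenol hearts, against 0.159 and 0.318 CPM in WT isoproterenol hearts. Its log2 difference was 1.45 ± 0.55 (unadjusted p = 0.0282; edgeR adjusted p = 0.234), on at most 20 counts per library, and 0.99 with the offsets. In isoproterenol hearts Aebp1 and Cpz were higher and Cpd and Cpm lower in Set7KO without overlap, 4 of 7, where 68.2% of all genes did not overlap. In saline hearts Cpxm2 and Aebp1 were lower in Set7KO without overlap, 2 of 7, as were 18.3% of all genes. Over both treatments the genotypes overlapped for all 7 genes, and 0.556% of all genes showed none.

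Whether the response to isoproterenol differed between genotypes was tested by the interaction, the log2 difference in Set7KO minus that in WT. No member and none of 17636 genes (0%) passed, while 5400 had an unadjusted p under 0.05, or 30.6%. For Cpxm2 the interaction was 0.81 ± 0.31 (95% interval 0.09 to 1.52; unadjusted p = 0.032; edgeR adjusted p = 0.137). It was 0.47 ± 0.30 with the offsets (adjusted p = 0.481) and ran between 0.61 and 0.99 when 1 library was left out. It adds up from a genotype difference of 0.19 in isoproterenol hearts minus one of -0.62 in saline hearts, where Cpxm2 was lower in Set7KO. The interaction of Cpz was 1.73 ± 0.77 (adjusted p = 0.168) and 0.92 with the offsets. For Aebp1 it was 0.90 ± 0.41 (adjusted p = 0.171) and 0.18 with the offsets, and for Cpxm1 0.88 ± 0.59 (adjusted p = 0.322) and 0.33. Without Set7KO saline replicate 1, when that group was left with the library low in GC-rich counts, Aebp1 and Cpxm1 were called (adjusted p = 0.0222 and 0.0333), as were 5778 genes in all, or 31.6%. Without Set7KO saline replicate 2 the interactions were 0.58 for Aebp1, 0.41 for Cpxm1 and 0.81 for Cpxm2, and none was called. The interaction of Cpd was -1.29 ± 0.79 (adjusted p = 0.276) and -0.15 with the offsets, and that of Cpm was -0.61 ± 0.44 (adjusted p = 0.349) and 0.13. Cpe had the smallest interaction of the 7, -0.06 ± 0.33 (95% interval -0.81 to 0.68; adjusted p = 0.908).

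**Figure D4:**
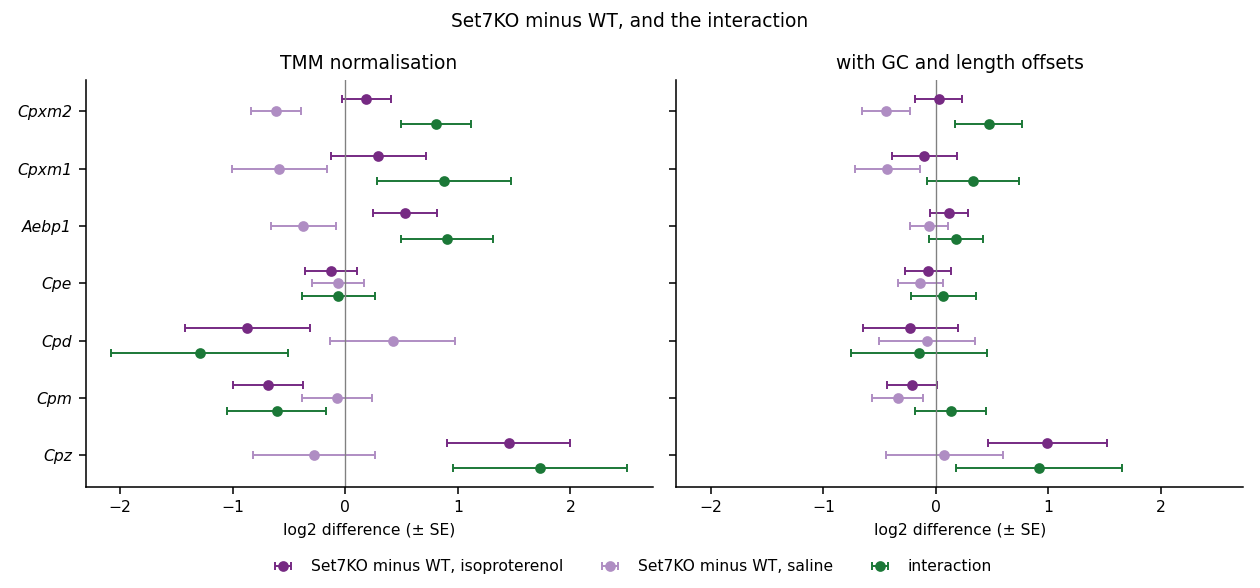
Fitted log2 difference between Set7KO and WT in isoproterenol and in saline hearts, and the interaction, for each of the 7 tested genes (x axis, points with standard errors), without and with GC and length offsets. With the offsets the interaction is 0.18 for Aebp1 in place of 0.90, -0.15 for Cpd in place of -1.29 and 0.13 for Cpm in place of -0.61, while Cpxm2 is at 0.47 in place of 0.81.

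Genes whose pattern over the 8 libraries was most like that of Cpxm2 were ranked by the root mean square difference of log2(CPM + 0.5), each gene centred on its own mean, among 10765 genes at a mean of at least 2 CPM. The closest 6 were Ahnak2 (0.30 log2 units), Lgi3 (0.37), Astn2 (0.38), D7Ertd443e (0.39), Pamr1 (0.41) and Ackr4 (0.43). Ahnak2, a very large scaffold protein, had 67.6 and 51.8 CPM in Set7KO isoproterenol hearts, against 20.5 and 13.1 CPM in Set7KO saline hearts. Its WT levels were 53.1 and 52.1 CPM after isoproterenol, against 25.3 and 21.2 CPM after saline. Lgi3, a secreted leucine-rich repeat protein, had 10.7 to 20.4 CPM in isoproterenol hearts and 5.04 to 7.33 CPM in saline hearts. Ackr4 is an atypical chemokine receptor that scavenges chemokines, and it fell to the 31st place with the offsets, while the other 5 stayed within the first 8. None of the family came near this likeness. Cpe was the closest at 0.80 (place 293), then Cpm at 0.88 (895) and Cpd at 0.89 (1017), while Cpz was at 0.98 (3478), Aebp1 at 1.00 (4152) and Cpxm1 at 1.05 (6009). The added 0.5 damps the pattern of Cpz, whose levels were around that value, so its place among the others depends on that choice.

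**Figure D5:**
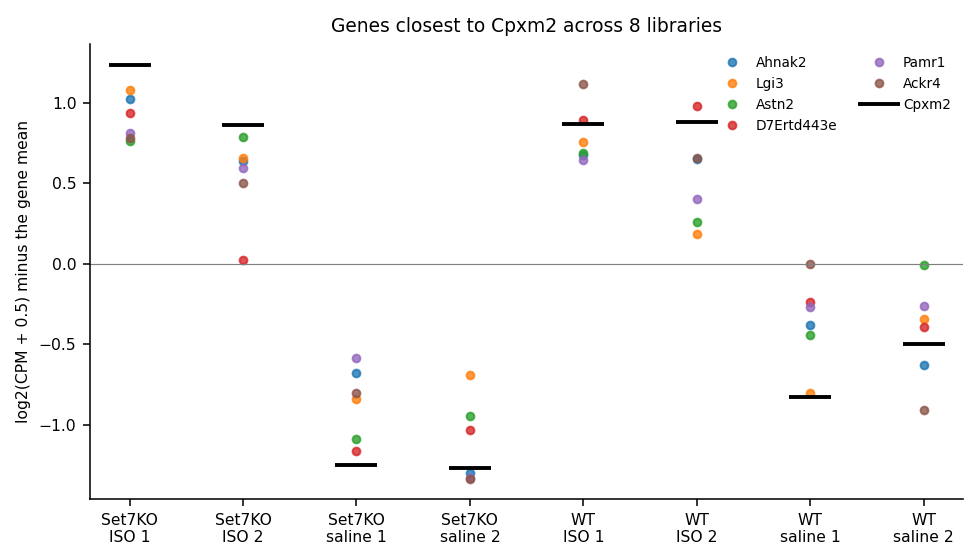
Log2(CPM + 0.5) minus the gene's mean in each of the 8 libraries for Cpxm2 (bars) and the 6 genes closest to it (points). The genes were chosen for this likeness, so their grouping by treatment is a description: Ahnak2, the closest, is 0.30 log2 units from Cpxm2.

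Genes that work with the active members were taken from lists. Prohormone processing is the pathway in which Cpe acts: convertases cut a precursor, Cpe trims the basic residues and Pam amidates the new end. Of 19 listed genes 8 were tested and none was called by isoproterenol, where at most 0.051% of all genes were. Before adjustment 3 were higher and 1 was lower at p under 0.05, a level that 9.40% of all genes reached in either direction. The median averaged log2 difference of the 8 was 0.22. Pam had 1564 ± 464 CPM after isoproterenol and 651 ± 207 CPM after saline (SD, n = 4 each), a log2 difference of 1.27 ± 0.29 (edgeR adjusted p = 0.203). Ptprn, a membrane protein of secretory granules, had 27.2 ± 8.02 CPM after isoproterenol and 12.5 ± 1.53 CPM after saline, a log2 difference of 1.08 ± 0.15 (adjusted p = 0.0753). Furin, a convertase of the Golgi, had 148 ± 32.6 CPM after isoproterenol and 202 ± 54.8 CPM after saline (log2 difference -0.46 ± 0.19, adjusted p = 0.507). With Set7KO against WT, none of the 8 had an unadjusted p under 0.05 on average over treatments.

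Kinins and anaphylatoxins are the peptides that Cpm and carboxypeptidase N shorten. Of 12 listed genes 6 were tested and none was called in any contrast, where at most 0.051% of all genes were. The median averaged log2 difference for isoproterenol was -0.38. Cpn2, the non-catalytic partner of Cpn1, had 2.06 ± 0.63 CPM after isoproterenol and 4.35 ± 1.15 CPM after saline (SD, n = 4 each), a log2 difference of -1.09 ± 0.30 (edgeR adjusted p = 0.297). C3, the precursor of an anaphylatoxin, had 258 ± 99.4 CPM in Set7KO and 153 ± 55.9 CPM in WT (log2 difference 0.75 ± 0.30, adjusted p = 1.00), and C5ar1, a receptor for another, had 8.02 ± 1.57 CPM in Set7KO and 5.49 ± 1.10 CPM in WT (0.56 ± 0.21, adjusted p = 1.00).

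No contrast called a more distant carboxypeptidase, and none called more than 0.051% of all genes. The pancreatic-type A and B enzymes were nearly absent: 3 of 8 had a count, 1 was tested (Cpa3, a mast cell protease), and their sum was at most 0.635 CPM in a library. Of the 6 cytosolic enzymes that trim glutamate from tubulin and other proteins 4 were tested. Agtpbp1 led them with 49.4 ± 20.0 CPM after isoproterenol and 47.5 ± 33.0 CPM after saline (SD, n = 4 each; edgeR adjusted p = 0.978). The median log2 difference of these 4 was -0.34 in Set7KO and 1.05 in WT, but 0.12 and 0.16 with the offsets. Of 7 carboxypeptidases outside the M14 family 6 were tested, among them Ctsa, a lysosomal serine carboxypeptidase, with 188 ± 39.2 CPM after isoproterenol and 219 ± 28.2 CPM after saline (adjusted p = 0.621).

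Because Aebp1 binds collagen, collagen fibre assembly genes were set beside the discoidin members. All 15 listed genes were tested and none was called by isoproterenol, where 9 of 17636 genes (0.051%) were. Before adjustment 3 were higher at p under 0.05, a level that 9.40% of all genes reached in either direction. The median averaged log2 difference of the 15 was 0.31, against 0.02 over all genes. The genotypes differed in this median, which was 0.55 in Set7KO and -0.06 in WT, a difference that was not tested. It was 0.61 and 0.04 with the offsets. The counts of single genes ran the other way. At an unadjusted edgeR p under 0.05, 0 of the 15 were higher in Set7KO and 4 in WT, and 0 were lower in either. Over all genes, 9.66% in Set7KO and 31.7% in WT had such a p in either direction. The summed level of the list was 891 CPM in the lower and 2066 CPM in the higher of the 2 Set7KO saline libraries. The Set7KO median uses both libraries and is not given without replicate 2. Both WT isoproterenol libraries were among the 3 with low counts of GC-rich genes. Lum, a collagen-binding proteoglycan, had 17.2 ± 9.96 CPM after isoproterenol and 5.89 ± 2.80 CPM after saline. Its log2 difference was 1.47 ± 0.32 (edgeR adjusted p = 0.193), or 1.23 with the offsets. Postn, a matrix protein of activated fibroblasts, had 18.7 ± 12.3 CPM after isoproterenol and 6.20 ± 1.98 CPM after saline. Its log2 difference was 1.46 ± 0.39 (edgeR adjusted p = 0.284), or 1.00 with the offsets.

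Markers of heart cell types were set beside Cpxm2. The summed level of 7 resident fibroblast markers, most of it Gsn, was 3685 to 5283 CPM in Set7KO isoproterenol hearts, against 1438 to 3307 CPM in Set7KO saline hearts, and 2313 to 2892 CPM in WT isoproterenol hearts, against 3134 to 3655 CPM in WT saline hearts. All 7 were detected. Averaged over genotypes, 3 of these 7 were higher at an unadjusted p under 0.05 and none was called. That p was reached by 9.40% of all genes in either direction, and 0.051% of all genes were called. The median log2 difference of the 7 was 0.62 in Set7KO and 0.05 in WT, and 0.52 and 0.03 with the offsets. The Set7KO median includes saline replicate 2, which stood apart, and is not given without it. Pdgfra, a defining fibroblast receptor, had 34.2 ± 7.97 CPM after isoproterenol and 24.0 ± 2.41 CPM after saline (SD, n = 4 each). Its log2 difference was 0.51 ± 0.21 (edgeR adjusted p = 0.491), or 0.33 with the offsets. Mfap5 (0.61 ± 0.21, adjusted p = 0.402) and Ddr2 (0.42 ± 0.18, adjusted p = 0.507) were the others, at 0.51 and 0.14 with the offsets. Of 6 smooth muscle and pericyte markers 2 were higher at an unadjusted p under 0.05 and none was called. They were Rgs5 (log2 difference 0.61 ± 0.22, edgeR adjusted p = 0.427) and Myh11 (0.71 ± 0.27, adjusted p = 0.456), at 0.33 and 0.75 with the offsets. Of 6 macrophage markers 2 were lower at an unadjusted p under 0.05 and none was called. They were C1qb (-0.79 ± 0.24, edgeR adjusted p = 0.344) and C1qa (-0.70 ± 0.23, adjusted p = 0.376), at -0.61 and -0.50 with the offsets. The summed level of the 6 macrophage markers was 211 to 343 CPM in Set7KO isoproterenol hearts, against 232 to 326 CPM in Set7KO saline hearts. In WT it was 149 to 165 CPM after isoproterenol, against 303 to 383 CPM after saline. The 6 cardiomyocyte and 6 endothelial markers had none under that p. The 5 hepatocyte markers summed to at most 8.32 CPM in a library. In whole-heart RNA a change in the number of cells of a type and a change in RNA per cell cannot be told apart, and the part of cell make-up in the Cpxm2 values was not tested.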

How the data were processed

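The 8 heart RNA libraries were read on an Illumina NextSeq with 75 cycles after TRIzol extraction and a TruSeq Stranded mRNA preparation, per the labels' protocols. The authors deposited whole-number counts per gene, 1 column per library. Whether these are read counts or values that StringTie derived from coverage is not stated, and the tests and the floor treat them as read counts. Per the submitters' processing notes, HISAT2, HISAT, StringTie, edgeR and GRCm38 were used; their versions and roles, the strand setting and the treatment of multi-mapped reads: not given in the sources used here.

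Symbols, lengths and coordinates came from GENCODE M21 (GRCm38; 55227 of 55487 identifiers named). Groups followed the labels. edgeR 4.0.16 (R 4.3.3; TMM, filterByExpr, two-sided quasi-likelihood F-test) fitted 1 mean per group to the 8 libraries. Residual degrees of freedom were 4, prior ones 4.36, and the biological coefficient of variation was 28.4%. P-values were adjusted by Benjamini-Hochberg over the 17636 genes tested within each of the 7 contrasts, and 0.05 was the threshold. The F statistic gave the standard errors. Offsets were natural splines of GC content and log length (5 degrees of freedom for each). The floor was 3 counts.

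The members and lists were chosen with earlier results of these data known. Named genes were the members, Setd7, the 6 genes closest to Cpxm2 in pattern (gene models, pseudogenes and ribosomal protein genes left out), and from each list up to 3 genes with the smallest p in each averaged contrast at 1 CPM or more; the neighbours Gpr26 and Chst15, the overlapping genes and Cpa3 were added. Alternatives were DESeq2 1.42.0 or its size factors, limma-voom (limma 3.58.1), no filter, a filter of 1 CPM in 2 libraries, the offsets and leaving out each library. The procedure was tested on simulated counts.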

Additional observations from a re-analysis of the deposited data

Results flagged for a closer look

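The response of Cpz to isoproterenol ran in opposite directions in the genotypes, since both Set7KO isoproterenol libraries (0.602 and 0.695 CPM) were above both Set7KO saline libraries (0.358 and 0.359 CPM), while both WT isoproterenol libraries (0.159 and 0.318 CPM) were below both WT saline libraries (0.336 and 0.530 CPM). Of all genes, 16% were higher without overlap in Set7KO and 72.7% did not overlap in either direction in WT, so the separation does not set Cpz apart. The interaction of Cpz was 1.73 on the log2 scale (edgeR adjusted p = 0.168) and did not pass the test. An unadjusted interaction p under 0.05 was found for 30.6% of all genes. The Cpz value was not among them. The Cpz levels rest on 7 to 20 counts per library. With GC and length offsets the interaction of Cpz was 0.92, and its WT treatments overlapped.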

How the results depend on the processing

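No paired analysis was possible because the labels give no replicate numbers, and the numbers used here only name libraries. Cpxm2 kept its direction under every alternative in every contrast tried, and its averaged isoproterenol difference stayed between 1.84 and 2.04 with 1 library left out. For members called, isoproterenol in Set7KO gave 1 with no filter and 1 with DESeq2, which called 0.573% of all genes there. Isoproterenol in WT gave 1 with no filter and 2 with DESeq2, which called 15.4% of all genes there. With 1 library left out the averaged isoproterenol contrast gave 0 to 1 (0 without Set7KO isoproterenol replicate 1 or any 1 of the 4 WT libraries) and the interaction 0 to 2. A lone library in a group was given the spread of the other groups. Since Cpxm2 was picked for its isoproterenol difference, nothing is read from these isoproterenol counts. Counts over all genes under the same alternatives follow.

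Over the whole table, the 9 genes called for averaged isoproterenol became 159 with no filter, 14 with limma-voom, 251 with DESeq2 and 0 to 42 with 1 library left out. From 0 genes each, isoproterenol in WT gave 1512 with no filter, 2719 with DESeq2, 3 with the size factors, the 1 CPM filter or the offsets, and 0 to 3765 with 1 library left out. Isoproterenol in Set7KO gave 31, 101 and 0 to 486, and the interaction 1686, 2321 and 0 to 5778, under no filter, DESeq2 and leaving out 1 library. From 1 gene each, Set7KO against WT gave 19, 21 and 0 to 1030 in saline hearts, 3, 297 and 0 to 2 in isoproterenol hearts and 2, 2 and 1 to 2 on average. The cause of these shifts was not tested.

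Some log2 differences of the other members changed sign, among them -0.61 for the interaction of Cpm, -0.45 for Aebp1 in WT, 0.42 for Cpd between genotypes in saline hearts and 0.41 for Cpxm1 in Set7KO. For averaged isoproterenol, Cpxm1 was 0.027 with limma-voom and 0.16 with the offsets, Aebp1 -0.013 with the size factors or DESeq2, and Cpz 0.0014 with no filter and 0.14 with the offsets. With the offsets, Aebp1 was 0.11 for isoproterenol in WT, Cpxm1 -0.11 for Set7KO against WT in isoproterenol hearts, Cpz 0.073 and Cpd -0.078 for the same in saline hearts, and the interactions of Cpe and Cpm 0.067 and 0.13. With 1 library left out, averaged isoproterenol ran from -0.28 to 0.34 for Cpxm1, -0.17 to 0.22 for Aebp1 and -0.29 to 0.20 for Cpz. Isoproterenol in Set7KO ran from -0.076 to 1.15 for Cpxm1, -0.68 to 1.09 for Cpd and -0.17 to 0.36 for Cpm. Set7KO against WT on average ran from -0.51 to 0.13 for Cpxm1, -0.14 to 0.28 for Aebp1, -0.19 to 0.016 for Cpe and -0.66 to 0.058 for Cpd. In isoproterenol hearts it ran from -0.10 to 0.65 for Cpxm1 and -0.34 to 0.10 for Cpe. In saline hearts it ran from -0.18 to 0.060 for Cpe, -0.57 to 0.10 for Cpz, -0.48 to 0.98 for Cpd and -0.32 to 0.14 for Cpm. The interaction of Cpe ran from -0.31 to 0.16. Cpz was not tested under the 1 CPM filter, and its 7 to 20 counts per library limit its precision.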
